A study of Mus musculus with 2 samples.

Results

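Milk is made of a small set of very abundant proteins, and the genes that encode them were examined here in the mammary gland of the adult mouse. The 8 genes were chosen by name, as Csn1s1, Csn1s2a, Csn2, Csn3, Lalba, Wap, Glycam1 and Mfge8, and their rows were taken from a table of 27998 genes. All 8 had a row. Of these, 7 had counts in total epithelium and 6 had counts in sorted basal cells. The study profiled single cells of the mammary epithelium on the 10X Chromium platform, which tags each captured RNA molecule near its 3′ end, so that a count is 1 molecule of 1 gene in 1 cell.

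Both samples came from female FVB/NJ mice, an inbred strain, at 10 weeks of age, with no treatment and no transgene named in the labels. Each was 1 library from 4 pooled mice. The total epithelium library held 3302 cells gated as Lin-CD24+, and the sorted basal library held 4771 cells gated as Lin-CD29hiCD24+. Lin- means that cells with the blood and endothelial proteins TER119, CD31 or CD45 were removed, and cells that took up propidium iodide were left out as dead. The parity of the mice and their stage of the estrous cycle are not given in the sources used here. With 1 library per gate there was no replicate, so no difference was tested. All intervals are exact 95% intervals, limits at 0 counts are set at 3 counts, and both cover counting error only.

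The secretory epithelium of the gland has an inner luminal layer and an outer basal layer of contractile myoepithelial cells. Luminal cells are divided into luminal progenitors (LP), which express Elf5 and Kit and are regarded as the source of the milk-secreting alveolar cells, and mature luminal (ML) cells, which sense hormones through the estrogen, progesterone and prolactin receptors. In pregnancy and lactation, prolactin acts through its receptor PRLR and the kinase JAK2 on the transcription factor STAT5, which, with the glucocorticoid receptor and ELF5, drives transcription of the casein genes and Wap. The αS- and β-caseins (Csn1s1, Csn1s2a, Csn2) are calcium-binding milk proteins, κ-casein (Csn3) coats and stabilizes the casein micelle, and α-lactalbumin (Lalba) is the cofactor of lactose synthesis. Wap encodes whey acidic protein, Glycam1 encodes a mucin-like glycoprotein of milk and of high endothelial venules, and Mfge8 encodes a glycoprotein of the milk fat globule that also marks dying cells for uptake.

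The 4 casein genes lie in a cluster on chromosome 5 of mm10 (GRCm38), with the positions of GENCODE. Csn1s1 is at chr5:87666208-87682578, Csn2 at chr5:87692624-87699630 on the opposite strand, Csn1s2a at chr5:87774567-87788797 and Csn3 at chr5:87925579-87932665. Lalba (chr15:98480400-98482721), Glycam1 (chr15:103562759-103565081), Wap (chr11:6635482-6638637) and Mfge8 (chr7:79133768-79149060) lie elsewhere.

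STAT5 binds DNA at the letters TTCNNNGAA, which read the same on both strands. RefSeq promoter windows of 300 bases, from 250 before to 50 after the start of transcription (GRCm38.p6), were matched for 7 of the 8 genes, with none for Csn3. These letters stood in 4 of the 7 windows, and in 2726 of all 32851 windows (8.30%). They were TTCTTAGAA from -100 to -92 in Csn1s1, TTCTTGGAA from -93 to -85 in Csn2, TTCTTAGAA from +21 to +29 in Csn1s2a, and TTCCCAGAA from -145 to -137 in Glycam1, counted from the RefSeq start of transcription. This start is that of the GENCODE gene for Csn1s1 and Glycam1, but it lies 117 bases upstream of it for Csn1s2a and 205 bases downstream of it for Csn2, so that counted from GENCODE the match of Csn1s2a would lie before the start and the Csn2 stretch inside the gene. The windows of Lalba, Wap and Mfge8 had no match. The 160 bases before the RefSeq start are shown for these 4 genes, because 3 of them were counted in the same cells and the other had no count in any cell. The strand is that of the gene, and capitals mark the match. They are chr5:87666048-87666207 on the plus strand for Csn1s1, chr5:87699426-87699585 on the minus strand for Csn2, chr5:87774290-87774449 on the plus strand for Csn1s2a, whose match lies past the RefSeq start, and chr15:103565082-103565241 on the minus strand for Glycam1.
Csn1s1: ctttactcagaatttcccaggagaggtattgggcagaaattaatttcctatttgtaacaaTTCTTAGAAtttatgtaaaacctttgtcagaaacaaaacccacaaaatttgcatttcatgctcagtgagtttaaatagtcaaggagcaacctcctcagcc
Csn2: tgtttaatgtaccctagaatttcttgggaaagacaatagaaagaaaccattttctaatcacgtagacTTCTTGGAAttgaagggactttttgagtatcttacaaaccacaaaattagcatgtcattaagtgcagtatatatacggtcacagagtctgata
Csn1s2a: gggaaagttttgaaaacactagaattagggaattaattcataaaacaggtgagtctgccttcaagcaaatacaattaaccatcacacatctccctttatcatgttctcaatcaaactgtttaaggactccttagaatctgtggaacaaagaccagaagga
Glycam1: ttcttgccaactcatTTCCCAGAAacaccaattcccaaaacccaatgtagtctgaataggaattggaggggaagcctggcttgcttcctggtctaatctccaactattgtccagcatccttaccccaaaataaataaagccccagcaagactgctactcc

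The cells of total epithelium were divided by marker counts. Basal cells had 10 or more counts of Krt5, Krt14 and Acta2 together, ML cells had 10 or more of Prlr, Stc2 and Gpx3, and LP cells were the other cells with 3 or more of the luminal keratins Krt8, Krt18 and Krt19. This gave 1280 basal cells (median 1820 counts per cell), 766 LP cells (2483.5) and 1133 ML cells (3403). A further 26 cells passed both the basal and the ML threshold, and 97 passed none. The labels of the classes held for markers that the division did not use. The summed level of Kit, Elf5, Cd14, Aldh1a3, Ehf and Muc15 was 3733 counts per 1000000 counts (CPM) in LP, 400 CPM in ML and 165 CPM in basal cells, and that of Esr1, Pgr, Cited1, Areg, Ly6d and Foxa1 was 764, 7610 and 75.4 CPM. A basal list (Myl9, Cxcl14, Mylk, Sparc, Krt17, Trp63, Oxtr) stood at 16413 CPM in basal, 129 CPM in LP and 85.2 CPM in ML cells. Of 6 fibroblast markers, all 6 were detected, at 83.4 CPM in LP, 1419 CPM in ML and 358 CPM in basal cells, and the share of ML cells that is stromal was not tested. Endothelial, pericyte, immune, adipocyte and Schwann cell lists each stood at or below 44.5 CPM in all 3 classes. Near the ML threshold, 71 cells had 10 to 12 ML counts and 52 had 7 to 9, and 50 of the latter were LP by the rule.

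The sorted basal library was shallower, with a median of 487 counts per cell against 2425.5 in total epithelium, and 28 barcodes were present in both libraries. By the same rule it held 1757 basal cells (median 647 counts). Its 195 cells of the LP rule carried 8190 CPM of the basal list beside 1057 CPM of the LP list, so most of their marker counts were basal and they are called keratin-positive cells here. A further 7 cells passed the ML threshold and 1 passed both. The remaining 2811 cells passed no threshold (median 399 counts), and they carried 11342 CPM of the basal list.

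The caseins, Lalba and Mfge8 were counted mainly in LP cells, whereas Wap and Glycam1 were near or at 0. Each captured molecule is tagged once at its 3′ end, so levels of different genes are compared per molecule and not per length. The 4 caseins together reached 23394 CPM in LP cells (23190 to 23599), 1729 CPM in ML cells and 717 CPM in basal cells. The level in LP cells was 13.5-fold that of ML cells (13.2 to 13.9) and 32.6-fold that of basal cells (31.2 to 34.2). LP cells were 23.2% of the library and held 84.5% of its casein counts. Of the 7 genes with 10 or more counts over the 3 classes, 7 were at least 2-fold higher in LP than in both other classes. The same held for 4.86% of the 11868 genes tested, and the median log2 ratio of LP to the higher of the other classes was 3.48 for these 7 genes and -0.66 for all genes tested. The 7 genes include Wap, which passed the limit of 10 counts through LP cells alone. It had 18, 0 and 0 counts in LP, ML and basal cells, so its call is a description.

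Over all LP cells, Csn1s2a had the highest level of the 8 genes, a rank that rested on few cells. It stood at 8166 CPM in LP, 608 CPM in ML and 213 CPM in basal cells. Csn3 followed with 6649, 619 and 249 CPM. Csn2, which encodes a major casein of mouse milk, stood at 5416, 329 and 169 CPM. Csn1s1 stood at 3162, 173 and 86.0 CPM. For each of the 4 caseins the order was LP, ML, basal, and no 2 of the intervals overlapped. These intervals do not cover the uneven spread of counts over cells. For Csn1s2a, the top 1% of cells held 79.1% of the counts in ML and 95.6% in basal cells. The log2 ratio of LP to ML ranged from 3.42 for Csn3 to 4.19 for Csn1s1, and that of LP to basal from 4.74 for Csn3 to 5.26 for Csn1s2a. Without the 8 LP cells (the top 1%) with most casein counts, Csn1s2a fell to 5566 CPM and Csn2 to 3684 CPM, below Csn3 at 6475 CPM and Mfge8 at 6479 CPM, and the intervals of the latter 2 genes overlapped.

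Lalba showed the same order at a lower level, with 1675 CPM in LP (1621 to 1730), 150 CPM in ML and 55.8 CPM in basal cells. This is 11.1-fold above ML (10.2 to 12.2) and 30.01-fold above basal cells (25.5 to 35.6). Mfge8 differed from the other genes in its level outside LP cells. It stood at 6361 CPM in LP, 715 CPM in ML and 663 CPM in basal cells, so that LP exceeded ML 8.90-fold (8.55 to 9.26) and basal cells 9.59-fold (9.13 to 10.1). ML exceeded basal cells 1.08-fold for Mfge8 (1.02 to 1.14) and 2.41-fold for the 4 caseins (2.29 to 2.54). For Mfge8 this order depended on which cells were taken. Mfge8 stood at 243 CPM in the 1002 ML cells with fewer than 3 counts of the LP list. It stood higher, at 523 CPM, in the 1132 basal cells with fewer than 10 luminal keratin counts. The caseins stood at 363 and 74.6 CPM in the same cells, which kept their order.

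**Figure D1:**
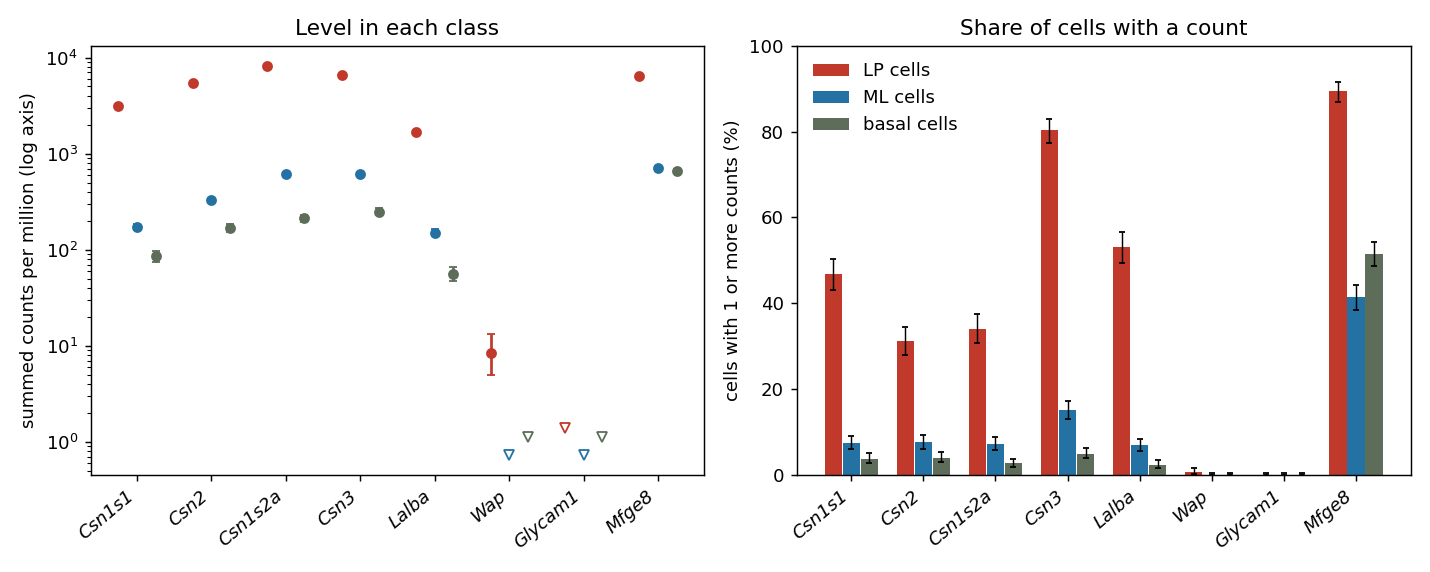
Left, level of each gene in LP (red), ML (blue) and basal cells (green) of total epithelium in CPM of summed counts on a log axis, with exact 95% Poisson intervals, where open triangles mark 0 counts and are drawn at the level of 3 counts. Right, percent of cells with 1 or more counts, with exact binomial intervals. LP cells are highest for every gene with counts, and Mfge8 alone is found in over 40% of ML and of basal cells.

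Wap had 18 counts in all, in 5 of 766 LP cells, and none in ML or basal cells or in the sorted basal library. Its level in LP cells was 8.34 CPM (4.94 to 13.2). With 0 counts set to 3, this is 11.5-fold that of ML cells and 7.37-fold that of basal cells. The exact lower limits of these ratios were 8.42 and 5.40. The 5 cells had 9, 4, 3, 1 and 1 Wap counts. Their casein counts were 1374, 1482, 2566, 693 and 78, which ranked them 5, 3, 1, 13 and 141 among the 766 LP cells. Without the 8 cells with most casein counts, 2 Wap counts remained. The sorted basal library was too shallow for a statement on Wap, since 3 counts in its keratin-positive cells would be above the level in LP cells. Glycam1 had no count in 3302 and 4771 cells, which, with a limit of 3 counts, allows a share of cells with a count of up to 0.0909% in total epithelium and 0.0629% in sorted basal cells, or 0.325 and 1.21 CPM. Of 3 markers of high endothelial venules and lymph node (Madcam1, Chst4, Ccl21a), a site where Glycam1 is also made, 1 count was found in the 3 classes.

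Expression was not even along the casein locus. From the start of Csn1s1 to the end of Csn3, 266 kb, GENCODE lists 7 protein-coding genes, all of them in the table. Csn1s2b, which encodes a further αS2-like casein, starts 142 kb from the start of Csn1s1, next to Csn1s2a, and had 4 counts in 4 LP cells, against 17627 counts of Csn1s2a. Prr27 and Odam, which lie between Csn1s2b and Csn3, had 0 counts in all 3 classes, and Csn3 beyond them had 14353 counts in LP cells.

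**Figure D2:**
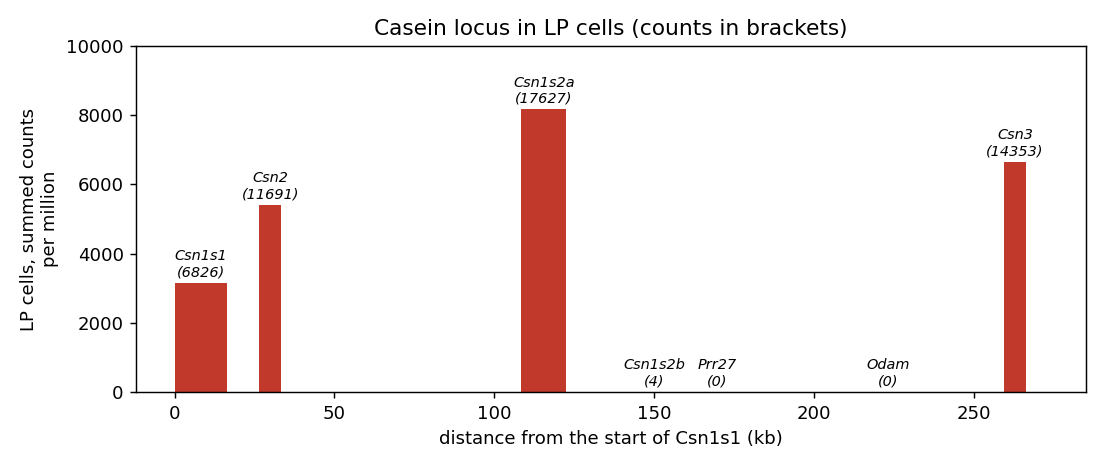
Level in CPM of summed counts in LP cells (linear axis from 0) of the 7 protein-coding genes of the casein locus against distance from the start of Csn1s1 in kb, with bar width the length of the gene and counts in brackets. The caseins Csn1s1, Csn2, Csn1s2a and Csn3 have 6826 to 17627 counts, and Csn1s2b, Prr27 and Odam have 4, 0 and 0.

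The genes differed in how many LP cells held them. Mfge8 was counted in 89.4% of LP cells (87.0 to 91.5) and Csn3 in 80.3% (77.3 to 83.0). Lalba was counted in 53.0% (49.4 to 56.6), Csn1s1 in 46.7% (43.2 to 50.3), Csn1s2a in 33.9% (30.6 to 37.4) and Csn2 in 31.1% (27.8 to 34.5). The intervals of Csn1s2a and Csn2 overlapped, and so did those of Lalba and Csn1s1. Csn1s2a, highest in summed counts, was thus among the less often detected. At an equal depth of 800 counts per cell, which kept all cells, the expected shares were 85.0% for Mfge8, 72.4% for Csn3, 40.1% for Lalba, 37.9% for Csn1s1, 27.9% for Csn1s2a and 25.6% for Csn2.

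Counts of Csn1s2a and Csn2 were concentrated in few cells. A single LP cell held 1702 counts of Csn1s2a and another 798 of Csn2, whereas the median LP cell held 0 of either. Only 16 cells (2.09% of LP cells) held 50% of the counts of each of these genes, against 44 cells for Csn1s1, 71 for Lalba, 82 for Csn3 and 163 for Mfge8. The top 1% of LP cells held 36.0% of Csn1s2a, 34.8% of Csn2, 17.8% of Csn1s1, 10.8% of Lalba, 9.15% of Csn3 and 4.84% of Mfge8 counts. At their means, Poisson counts would have left 100% of LP cells with a Csn1s2a, Csn2 or Csn3 count. In 22 LP cells (2.87%) caseins made up over 10% of all counts, and in the highest cell they made up 32.7%. In the median LP cell they made up 0.576%.

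**Figure D3:**
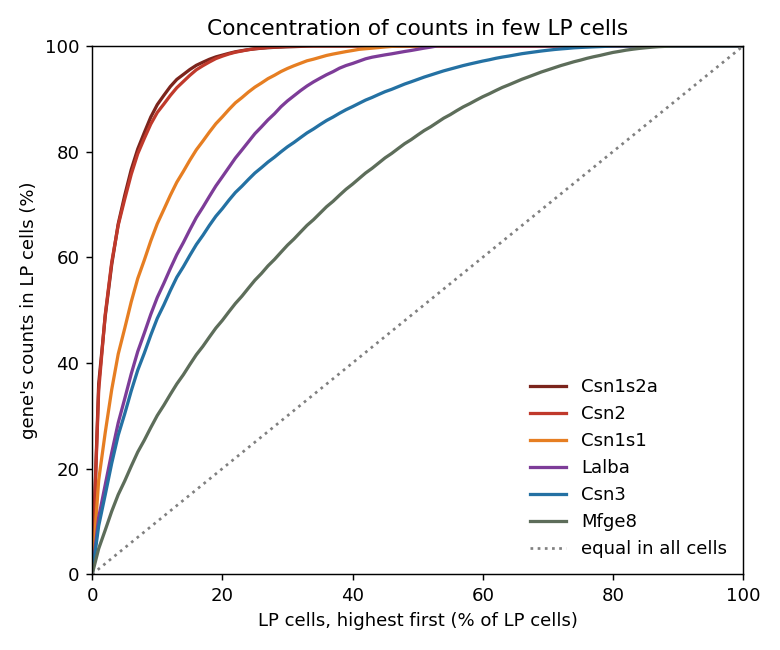
Cumulative percent of each gene's counts in LP cells against percent of the 766 LP cells, ranked by that gene from the highest. The curves of Csn1s2a and Csn2 rise steepest, with 36.0% and 34.8% of counts in the top 1% of cells, and Mfge8 lies nearest to the diagonal of equal counts in all cells, with 4.84%.

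LP cells were next described by their casein counts. The shares of single caseins in such groups follow in part from the grouping, which used the same counts, and are a description. The groups also differed in depth, with median counts per cell of 1537 in cells with 0, 1857 with 1 to 9, 2709 with 10 to 99 and 4513 with 100 or more. In the 205 cells with 1 to 9 casein counts, Csn3 was detected in 89.8% of cells and Csn1s2a in 10.2%. In the 321 cells with 10 to 99, they were detected in 98.8% and 41.1%. In the 114 cells with 100 or more, they were detected in 100% and 93.9%. Of the counts of the 4 caseins and Lalba, Csn3 made up 61.0%, 52.0% and 16.9% in these 3 groups, and Csn1s2a 2.81%, 10.7% and 40.9%. The cells with 100 or more, 14.9% of LP cells, held 75.2% of the casein counts of the class. Lalba, which was not used to form the groups, stood at 90.4 CPM in the 126 LP cells without a casein count and at 676, 1778 and 2981 CPM in the other groups. Mfge8 stood at 2174, 6507, 7416 and 6194 CPM and did not follow the casein amount above 9 counts per cell.

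Pairs of genes were detected together to different degrees in LP cells. Of the 260 cells with Csn1s2a, 90.8% had Csn1s1, 72.7% had Csn2 and 95% had Csn3. Of the 506 cells without Csn1s2a, 24.1% had Csn1s1, 9.68% had Csn2 and 72.7% had Csn3. Over the 766 cells, Pearson's r of the log-transformed counts per 10000 was 0.80 for Csn1s2a and Csn2, 0.73 for Csn1s2a and Csn1s1 and 0.33 for Csn1s2a and Csn3. It was 0.14 for Csn1s2a and Mfge8, and 0.56 for Csn3 and Mfge8. These values describe cells of 1 library that share depth and total. Of the 6 genes Csn1s1, Csn1s2a, Csn2, Csn3, Lalba and Mfge8, all 6 were detected in 149 LP cells (19.5%), which held 74.7% of the casein counts of the class, and none in 70 cells (9.14%).

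The LP class itself was mixed at its edge toward ML cells. The 126 LP cells without a casein count carried 3848 CPM of the ML list and 1309 CPM of the LP list, against 260 and 4293 CPM in the 114 cells with 100 or more casein counts. Where LP cells were required to have fewer than 3 basal and fewer than 3 ML counts, a casein count was found in 92.6% of them, against 83.6% of all LP cells. Among the 116 LP cells with 3 or more counts of Prlr, Stc2 and Gpx3, 37.9% had a casein count (29.1 to 47.4), and among the other 650 cells 91.7% (89.3 to 93.7).

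Outside LP cells, casein counts came from few cells that also carried luminal progenitor transcripts. In ML cells, 85 of 1133 cells (7.50%) had 10 or more casein counts, and they held 94.8% of the casein counts of the class. Their LP list stood at 1954 CPM, against 87.6 CPM in the 864 ML cells without a casein count, and their median depth was 5730 against 3149 counts. Divided by the LP list instead of the caseins, the 131 ML cells with 3 or more LP marker counts stood at 8070 CPM of caseins and the other 1002 at 363 CPM (343 to 384). The median depths of these 2 groups were 5555 and 3218 counts. Lalba stood at 772 and 16.5 CPM in the same groups, and Mfge8 at 2905 and 243 CPM. Whether the ML cells with both kinds of transcripts were 1 cell or 2 cells in a droplet was not tested.

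In basal cells, 21 of 1280 cells (1.64%) had 10 or more casein counts and held 90.3% of the casein counts of the class. Of these 21 cells, 18 had 10 or more luminal keratin counts, which held for 130 of the other 1259 basal cells. Their median depth was 4945 counts, against 1781.5 in basal cells without a casein count. The highest had 508 casein counts, 311 of them of Csn1s2a. In the 148 basal cells with 10 or more luminal keratin counts, caseins stood at 3839 CPM, and in the other 1132 cells at 74.6 CPM (63.6 to 86.9). These groups also differed in depth, with medians of 2710 and 1752.5 counts. A casein count was found in 25% and 8.75% of their cells, so most cells of either group had none. Mfge8 depended less on luminal keratins, with 1343 and 523 CPM. Lalba stood at 296 and 6.37 CPM.

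**Figure D4:**
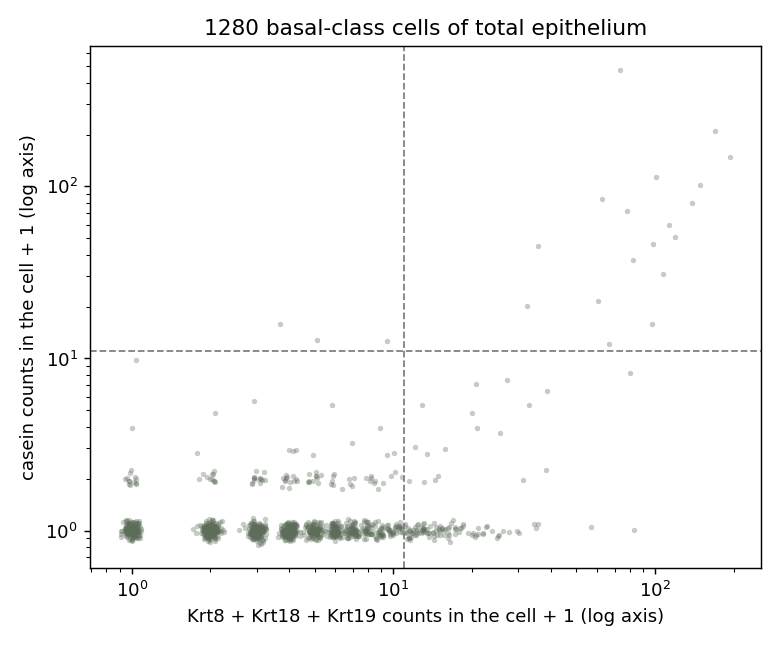
Casein counts plus 1 against luminal keratin counts (Krt8, Krt18 and Krt19) plus 1 in each of the 1280 basal cells of total epithelium, both on log axes with small random shifts so that equal points can be seen. Dashed lines mark 10 counts. Of the 21 cells above the horizontal line, 18 lie to the right of the vertical line, and 1129 cells lie below and to the left of both.

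Droplet libraries also hold free RNA from broken cells, which gives low counts in cells that do not express a gene. In the 1259 basal cells with fewer than 10 casein counts, the mean was 0.146 casein counts per cell, and 89.4% of all basal cells had none. In the 1048 ML cells with fewer than 10, the mean was 0.355 per cell, and in the 331 such LP cells 2.76 per cell. A single casein count was found in 6.95% of basal cells (median depth 2069 counts) and 11.4% of ML cells (3649). In these basal cells Csn1s1, Csn2, Csn1s2a and Csn3 made up 23.6%, 31.5%, 12.4% and 32.6% of the counts of the 4 caseins and Lalba, and in these ML cells 17.6%, 28.7%, 22.8% and 25.7%. In LP cells with 1 casein count, Csn3 made up 42.2% and Lalba 39.1%. Shares of basal or ML cells with a casein count are therefore given without a reading of expression, and the part of free RNA in them was not tested.

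Mfge8 was different from the caseins in basal cells in its spread over cells. It was counted in 51.4% of basal cells and 41.4% of ML cells, with at most 64 counts in 1 basal cell, and the 25 basal cells with 10 or more counts held 27.2% of its counts, against 90.3% for the caseins.

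The sorted basal library gave a second measurement of basal cells, with most luminal cells left out by the CD29hi gate. The sources do not state outright that the 2 pools held different mice. Over all cells, the 4 caseins stood at 196 CPM in the sorted library and at 6475 CPM in total epithelium, a 33.1-fold difference (30.3 to 36.3). Mfge8 stood at 764 and 2015 CPM, a 2.64-fold difference (2.51 to 2.77). Of the 8 genes, 7 had 10 or more counts over both libraries, and 6 of these were at least 2-fold higher in total epithelium, against 21.9% of 12615 genes tested. The other, Wap, was 1.62-fold higher with 0 counts set to 3, with an exact lower limit of 1.19. Gate and library cannot be told apart here.

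Cells of the basal class held fewer casein counts in the sorted library. The 4 caseins stood at 717 CPM in basal cells of total epithelium and at 49.2 CPM in those of the sorted library, 14.6-fold apart (11.2 to 19.2). The ratio depended on how basal cells were taken. It was 8.56-fold at thresholds of 5 counts, 8.63-fold at 20 and 9.50-fold as a mean over cells. It was 9.71-fold for Leiden clusters and 31.3-fold with marker counts scaled to the median depth. Cells thinned to a fixed depth gave 9.36-fold, but that depth was lower in the sorted library. The ratio at a depth common to both libraries was not tested. By gene, the basal cells of total epithelium and of the sorted library stood at 86.0 and 7.51 CPM for Csn1s1, 169 and 12.5 CPM for Csn2, 213 and 13.4 CPM for Csn1s2a, and 249 and 15.9 CPM for Csn3. Lalba stood at 55.8 CPM and, from 3 counts, at 2.50 CPM, a ratio of 22.3 (7.48 to 109). Mfge8 stood at 663 and 638 CPM, a ratio of 1.04 (0.954 to 1.13). At least 2-fold higher in the basal cells of total epithelium were the 4 caseins and Lalba but not Mfge8, and this held for 17.2% of 10586 genes tested. With basal cells that had 10 or more luminal keratin counts left out of both libraries, the caseins stood at 74.6 and 27.8 CPM (19.2 to 39.1 for the sorted library), and Mfge8 at 523 and 608 CPM, so that the ratio of caseins was 2.68-fold and that of Mfge8 0.860-fold. This left out 148 of 1280 basal cells of total epithelium and 13 of 1757 of the sorted library. The limit was not scaled to depth (medians of 1820 and 647 counts), so it was not equally strict in both.

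**Figure D5:**
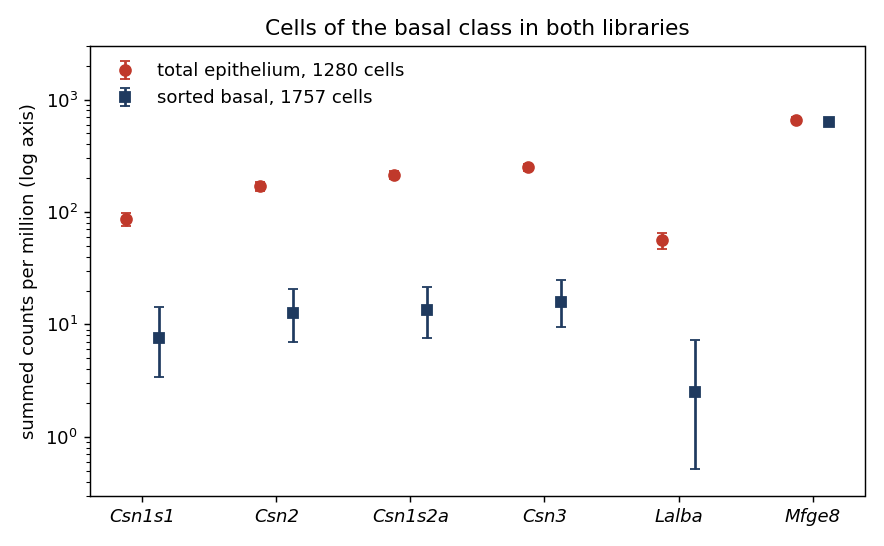
Level in CPM of summed counts (log axis, exact 95% Poisson intervals) in cells of the basal class of total epithelium (red circles, 1280 cells) and of the sorted basal library (blue squares, 1757 cells). The caseins and Lalba lie lower in the sorted library, 49.2 against 717 CPM for the 4 caseins together, and Mfge8 lies at 638 against 663 CPM.

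Within the sorted library, the 195 keratin-positive cells held 385 of the 487 casein counts (79.1%). The 10 of them with 10 or more casein counts held 73.8% of these 385, and the highest cell had 131. Caseins stood at 3131 CPM in the keratin-positive cells and at 49.2 CPM in basal cells, 63.6-fold apart (48.2 to 85.1). Mfge8 stood at 2554 and 638 CPM, 4.005-fold apart (3.50 to 4.57). Lalba stood at 244 CPM in the keratin-positive cells and, from 3 counts, at 2.50 CPM in basal cells, 97.4-fold apart (30.3 to 499). The 7 cells of the ML rule were too few for a level.

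Further genes of milk and its secretion were read from a list of 20 genes. Of these, 16 had 10 or more counts over the 3 classes of total epithelium, 13 were at least 2-fold higher in LP than in both other classes, against 4.86% of all genes tested, and none was so in ML cells, where 9.45% of all genes tested were. The 13 genes include Slc34a2, which passed the limit of 10 counts through LP cells alone. It had 28, 2 and 2 counts in LP, ML and basal cells, so its call is a description. The median log2 ratio of LP to the higher other class was 3.14 for the 16 genes. The iron carrier transferrin, Trf, stood at 43966 CPM in LP, 3999 CPM in ML and 2210 CPM in basal cells, and osteopontin, Spp1, at 41912, 3789 and 1733 CPM, both above any casein gene. Genes of milk fat secretion were lower. Plin2, which coats lipid droplets, stood at 1330, 242 and 100.7 CPM, Btn1a1, the butyrophilin of the fat globule membrane, at 479, 45.7 and 12.4 CPM, and Xdh, its xanthine dehydrogenase partner, at 68.6, 6.77 and 8.67 CPM. Lactoferrin, Ltf, an iron-binding defence protein, stood at 2912, 297 and 35.8 CPM, and the siderophore-binding lipocalin Lcn2 at 5311, 540 and 1807 CPM. B4galt1, the enzyme that forms lactose synthase with α-lactalbumin, was less than 2-fold higher in LP than in ML cells, with 22.7, 17.2 and 6.03 CPM. The fatty acid handling genes Cd36 and Fabp3 were at or below 5.10 CPM in each class and were not 2-fold higher in LP than in both other classes. Both had few counts, with 2, 7 and 2 for Cd36 and 11, 2 and 12 for Fabp3 in LP, ML and basal cells. Fabp3 stood at 5.10, 0.484 and 4.53 CPM, above ML but near basal cells. Csn1s2b, Odam, Lpo and Muc4 had fewer than 10 counts.

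A list of 12 genes of the prolactin pathway was read in the same way, all with 10 or more counts. Of these, 1 was at least 2-fold higher in LP than in both other classes, against 4.86% of all genes tested, and 4 were so in ML cells, against 9.45%. Prlr is 1 of the 4 and was used to define ML cells, so its call was fixed by the rule and its 1895 CPM in ML, 165 CPM in LP and 19.6 CPM in basal cells is a description. Stat5a stood at 83.2 CPM in ML, 33.8 CPM in LP and 23.0 CPM in basal cells, the luminal regulator Gata3 at 242, 120 and 94.3 CPM, and Tnfsf11 (RANKL) at 16.9, 2.32 and 0.754 CPM. The call of Tnfsf11 is also a description, since it passed the limit of 10 counts through ML cells alone (70 counts, with 5 in LP and 2 in basal cells). Elf5 was the gene that was higher in LP cells, with 374 CPM against 42.1 CPM in ML and 19.2 CPM in basal cells. Stat5b was at 21.3 CPM in LP and 19.8 CPM in ML cells, and Jak2 at 6.49 and 11.1 CPM. The STAT5 target Cish stood at 58.8 CPM in LP, 32.7 CPM in ML and 84.5 CPM in basal cells, and Socs2, which is induced by growth hormone and prolactin, at 32.9, 66.5 and 81.1 CPM. The remaining genes Nr3c1, Ghr and Id2 stood at 28.3, 30.1 and 252 CPM in LP cells. They stood at 9.19, 18.1 and 57.1 CPM in ML cells and at 44.9, 47.1 and 272 CPM in basal cells.

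Of 4801 genes detected in 5% or more of the 766 LP cells, the highest Pearson's r with the caseins, on log-transformed counts per 10000, was 0.72 for Trf, 0.64 for Lcn2 and 0.60 for Spp1. The next were Cd81 (0.57), Itm2b (0.56), Plet1 (0.51), Mgst1 (0.51), Lrg1 (0.51), Folr1 (0.49) and Cst3 (0.48). The median over all genes was 0.01, and that of the casein value with the total counts of the cell was 0.44. Elf5 had an r of 0.32, Plin2 of 0.45, Btn1a1 of 0.42, Stat5a of -0.07 and Prlr of -0.36. The class rule limits LP cells to fewer than 10 counts of Prlr, Stc2 and Gpx3 together, so the value of Prlr is a description. Prlr stood at 753 CPM in the 126 LP cells without a casein count, which lie toward ML cells. It stood at 162, 72.9 and 75.7 CPM in those with 1 to 9, 10 to 99 and 100 or more. By casein group, Spp1 stood at 2002 CPM in LP cells without a casein count and at 19040, 38220 and 83960 CPM in those with 1 to 9, 10 to 99 and 100 or more. Elf5 stood at 103, 327, 436 and 419 CPM in the same groups. These correlations were measured over cells of 1 library and carry no test.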

How the data were processed

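The series holds 1 library of total mammary epithelium and 1 of sorted basal cells, each from 4 pooled mice, on the 10X Chromium platform. The authors deposited whole-number counts of unique molecules for each gene and cell, without normalization. The submitters' processing notes name Cell Ranger 1.2.1 and mm10, and the study's methods name version 2.0, so the version is uncertain. Collapse of repeated reads, removal of reads shared between genes and the choice of barcodes precede these counts. The libraries held 9227651 and 2488704 counts, 802 to 12967 and 137 to 1946 per cell.

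All deposited cells were kept. No doublet caller was run, and cells that passed both the basal and the ML threshold were kept apart. Counts were summed over the cells of a class and divided by all their counts, per 1000000 (CPM). Levels have exact Poisson, shares Clopper-Pearson and ratios exact conditional binomial 95% intervals. A class at 0 counts was set to 3 counts in a ratio. Genes with 10 or more summed counts were compared at a fold of 2. Shares at equal depth are expected values at 800 counts in total epithelium and 300 in sorted basal cells. The 2-fold call and the interval of the ratio of LP to ML were run on simulated Poisson counts of whole classes. These hold no extra spread between cells, so they do not cover the uneven counts of the caseins. The share at equal depth was compared with random draws, and the division into classes was not simulated. No test of a difference was run, since each gate has 1 library. Python 3.11.15, numpy 2.4.6, scipy 1.17.1, pandas 2.3.3, scanpy 1.11.5, leidenalg 0.10.2 and matplotlib 3.10.9 were used.

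The 8 genes, the gene and marker lists and the alternatives were chosen with earlier results of these data known. Named genes are the 8, 20 further milk genes, 12 genes of the prolactin route, and the 10 genes whose log-transformed counts per 10000 correlated best with those of the summed caseins over LP cells. Prr27 was named for its place in the casein locus.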

Additional observations from a re-analysis of the deposited data

How the results depend on the processing

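Of the 8 genes, 7 were at least 2-fold higher in LP cells under 13 of the 15 alternative settings. A fold of 4 was among these settings. The number was 6 without the top 1% of each class by casein counts or without the deepest 5% of cells. The 7 genes include Wap, which had 18, 0 and 0 counts in LP, ML and basal cells. Wap passed the minimum count through LP cells alone, so its call is a description and its place in the 7 is no check. Without the top 1% of LP cells by casein counts, 2 Wap counts remained, below the minimum. All log2 ratios of LP to ML and to basal cells kept their sign under each alternative run. Because the counting intervals are narrow, most levels moved beyond them.

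Thresholds of 5 counts gave a casein level in LP cells of 25064 CPM, log2 ratios of 3.59 to ML and 5.14 to basal cells, 90.8% of LP cells with a casein count and 22.0% of casein counts in the top 1% of LP cells. Thresholds of 20 gave 18750 CPM, 4.01, 4.65, 68.2% and 24.8%. Strict LP cells gave 24435 CPM, 3.82 to ML, 92.6% and 19.7%. A keratin threshold of 10 gave 23789 CPM and 21.2%. Marker counts scaled to the median depth gave 21819 CPM, 4.44, 5.19 and 21.4%. Leiden clusters gave 25452 CPM, 3.81, 7.34, 94.1% and 20.8%. The mean over cells of CPM gave 16687 CPM, 3.997, 5.802 and a log2 ratio of total epithelium to the sorted library of 5.22, against 5.05 as reported. Cells thinned to a fixed depth gave the same 16687 CPM, 3.997 and 5.802 as the mean over cells, so these values are not a separate check. The depth was set for each library on its own, and cells below it were left out. This setting gave 5.34 between libraries, which is not a ratio at a common depth, and shares of 77.9% and 14.0%. A denominator without mitochondrial and ribosomal protein genes and the 8 genes gave 27027 CPM. Without the top 1% of each class the values were 18492 CPM, 4.48, 7.23, 5.56 between libraries and 14.4%. Without the deepest 5% of cells they were 18939 CPM, 4.38, 5.9999, 6.32 between libraries and 17.1%. Without cells with stromal transcripts the ratio to ML was 3.71. The top 5% of LP cells held 50.1% of casein counts. In an alternative added after the data were seen, ML cells with 3 or more LP marker counts and basal cells with 10 or more luminal keratin counts were left out, which gave 6.01 to ML and 8.29 to basal cells. The causes of these shifts were not tested.

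No paired analysis was possible because each gate has 1 library. The sorted library's depth limits what can be said of Wap, Lalba and single caseins in its cells.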
